A study of Mus musculus with 2 samples.

Results

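The serpins are a superfamily of proteins that mostly block proteases, and the genes described here are the rows of the deposited expression table whose symbol starts with Serpin. This rule took 29 of the 20002 genes, grouped by the letter that names their clade into 15 Serpina genes, 5 Serpinb genes and 9 of other clades. The table came from bulk RNA-seq of whole mouse kidney, with 1 library labelled Control and 1 labelled CKO, a proximal tubule knockout of Regnase-2 according to the sample labels. Per the study's methods the animals were C57BL/6J mice injected in the tail vein at 11 weeks of age, and the knockout was a knockdown made with AAV9 that carried shRNA against Regnase-2. The methods describe AAV9 as reaching mainly the proximal tubules, and the control virus as an empty vector in one place and as control shRNA in another. Age at harvest is given as 14 weeks in the RNA-seq methods and as 16 weeks in the virus methods. The labels name no other treatment, and the RNA came from left kidneys, by the methods, which do not say how many mice a library held.

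A serpin inhibits its protease by offering a flexible loop as bait, and once the loop is cut, inhibitor and enzyme are locked together and both are lost. Clade A members are mainly secreted plasma proteins of the liver, clade B members stay inside cells and shield them from their own and from leukocyte proteases, and members of other clades restrain, among others, plasmin and thrombin. Some members inhibit nothing and serve instead as hormone carriers or as chaperones. In the kidney, serpins are best known for limiting the breakdown of fibrin and extracellular matrix, and receptors of the proximal tubule take up filtered proteins, some serpins among them.

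Each column of the table had a lowest value far above 0, 35 for control and 51 for CKO. Above these minima every whole number up to 200 was present in both columns. The minimum minus 1 was therefore subtracted from each column, and what was left was taken as reads. This gave 38851231 control reads and 43588721 CKO reads. To make the libraries comparable, the control-to-CKO ratio of reads was taken for each gene, and its median, 0.667, served as the factor for the CKO values. A fold below is the ratio of scaled CKO reads to control reads, and its 95% Clopper-Pearson interval covers counting error only. Log2 ratios carry a pseudocount of 1, and a gene counted as higher or lower when its log2 ratio was at least 2-fold either way. With 1 library per group, no difference below has a replicate check, and reads from PCR copies are not independent molecules.

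Zc3h12b, which encodes Regnase-2, had 47 control and 59 CKO reads, or 39.3 of the latter after scaling. Its fold was 0.837 with an interval of 0.561 to 1.26, which includes 1, so at this depth the whole-kidney reads showed no detectable knockdown and the gene does not check the labels. The second group is therefore called the library labelled CKO, and each direction below rests on that label. The methods name immunofluorescence as the check of the knockdown, and it was not used here. All 6 kidney marker genes were present in both libraries, led by Slc34a1 with 147064 control reads and by Umod with 187056 reads in the library labelled CKO. Their median log2 ratio was -0.03, between -1.17 for Slc34a1, a phosphate transporter of the proximal tubule, and 0.79 for Aqp2, a water channel of the collecting duct.

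Most Serpin genes that could be compared were higher in the library labelled CKO. Of the 29 genes, 28 had at least 10 scaled reads in 1 library. Of these, 16 were at least 2-fold higher (57.1%), against 13.4% of the 17469 genes kept over the whole table. At least 2-fold lower were 2 (7.14%), against 5.35% of all genes kept, so that count stood near the background. The median log2 ratio was 1.28 for the 28 Serpin genes and 0.02 for all genes kept. Of the 28, 3 passed the minimum through the library labelled CKO alone (Serpina3f, Serpina3n and Serpina7) and had to be higher there. Among the 25 that passed in the control library, 13 were at least 2-fold higher (52.0%), against 10.4% of the 16628 genes of the whole table that passed there.

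The clades differed in how evenly their members moved. Of the 5 Serpinb genes, 4 were at least 2-fold higher and none lower. The Serpina genes split into 8 that were at least 2-fold higher and 7 within 2-fold. Of these 8, Serpina3f, Serpina3n and Serpina7 passed the minimum through the library labelled CKO alone and had to be higher there. Among the 8 kept genes of other clades, 4 were higher, 2 lower and 2 within 2-fold. Over all genes kept, 13.4% were at least 2-fold higher and 5.35% lower. The median log2 ratios were 1.09 for Serpina, 1.47 for Serpinb and 1.06 for the others. These directions apply to values scaled by the median gene. With equal library totals the median of all genes kept moved to 0.44, and relative to that shift 15 Serpin genes were at least 2-fold higher and 2 lower. With the values as deposited that median was 0.57, and relative to it 12 were higher and 2 lower.

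**Figure D1:**
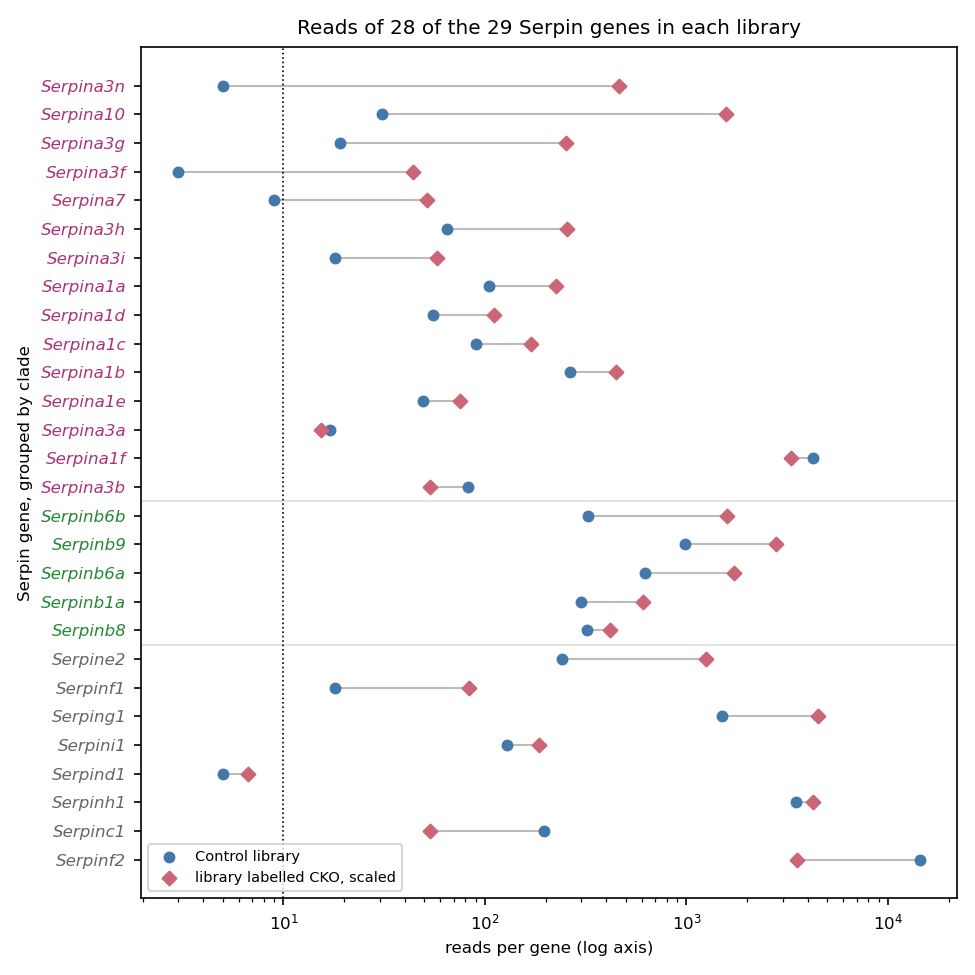
Reads of 28 of the 29 Serpin genes, on a log axis, as circles for the control library and as diamonds for scaled values of the library labelled CKO, with genes grouped and coloured by clade. The dotted line marks 10 reads, and the longest connecting lines belong to Serpina3n (5 and 460.7) and Serpina10 (31 and 1570).

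The summed Serpin signal hid this change of members. The 29 genes had 27662 control reads against 43276 in the library labelled CKO, which scaled to 28850.7. The ratio of the scaled sums was thus 1.04, because the loss of reads from 1 abundant gene nearly balanced the gains of the others. That gene was Serpinf2, and without it the ratio of the sums was 1.91. As a share of all reads, the family made up 0.0712% of the control library (95% Clopper-Pearson interval 0.0704% to 0.0720%) and 0.0993% of the library labelled CKO (0.0983% to 0.1002%). The near balance of the sums thus holds for the median-gene scaling and not for equal totals.

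Serpinf2 alone supplied 52.1% of the Serpin reads in the control library (interval 51.5% to 52.7%) and 12.3% in the library labelled CKO (12.0% to 12.6%). Serping1, which encodes the C1 inhibitor, went from 5.46% to 15.6% and became the member with most reads. Serpinb9 went from 3.55% to 9.66%, and Serpina10 from 0.112% to 5.44%. The library labelled CKO therefore had no dominant member. By clade, Serpinb genes went from 9.21% to 24.7% of the Serpin reads, while the clades outside A and B went from 72.5% to 50.7%.

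Levels between genes were compared per kilobase of annotated exon. In the control library Serpinf2 stood first at 6202 reads per kilobase, followed by Serpinh1 at 1436, Serpina1f at 1329 and Serping1 at 649. In the library labelled CKO the scaled order was Serping1 at 1940, Serpinh1 at 1746, Serpinf2 at 1530 and Serpina1f at 1039. The same 4 genes thus led in both libraries, and Serpinf2 moved behind Serping1 and Serpinh1. Serpinb9 followed at 281 and 797, and Serpinb6b at 144 and 705.

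**Figure D2:**
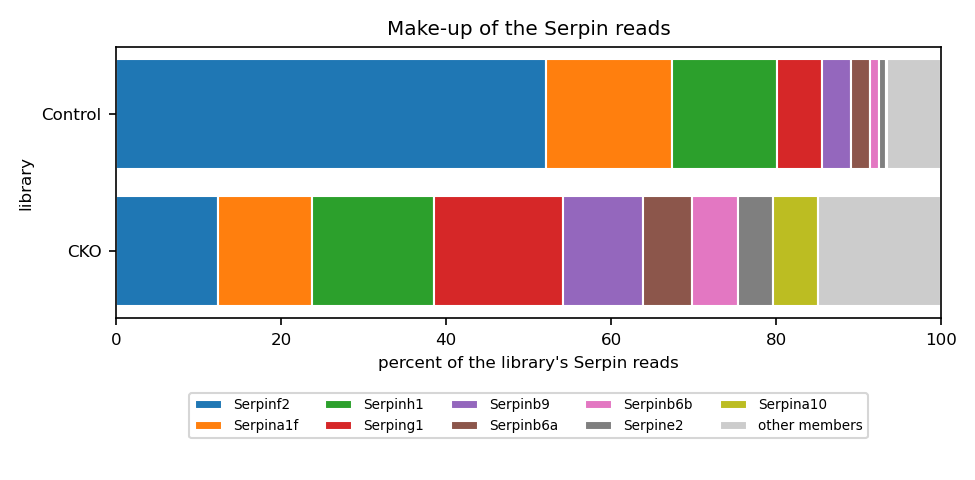
Percent of each library's Serpin reads taken by the 9 members that reached 4% in either library, with the other 20 members in grey. The Serpinf2 bar shrinks from 52.1% in the control library to 12.3% in the library labelled CKO, and the grey part grows from 6.51% to 14.9%.

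Of the 15 Serpina genes, 14 lie on chromosome 12 within 797660 bases of the GRCm38 assembly, from Serpina10 to Serpina3n, in a row of tandem copies. The exception is Serpina7 on the X chromosome. Along this row, the ratios of the Serpina genes changed from gene to gene. Serpina10 was high at one end, and Serpina1f, the next of these genes, was below 1. Serpina1a to Serpina1e lay between 1.54-fold and 2.13-fold, and Serpina3a and Serpina3b below 1. Serpina3f to Serpina3n were high at the other end. Gm8893, a gene of the table without a Serpin symbol, lies within the row between Serpina1d and Serpina1a. It stood at a log2 ratio of 0.43 from 25 and 51 reads. The nearest other genes of the table outside the row moved little, with log2 ratios of 0.07 for Ppp4r4 and -0.05 for Dicer1.

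Serpina10 (gene ID 217847, chr12:103616675-103631490) encodes the protein Z-dependent inhibitor of coagulation factor Xa. It had 31 control reads against 2355 in the library labelled CKO. It was 50.6-fold higher with an interval of 35.6 to 74.7, and its log2 ratio of 5.62 ranked 7 from the top of all genes kept. Serpina1f, the next gene of the row, had 4233 and 4964 reads and a fold of 0.782 (0.750 to 0.815), the most reads of the clade in both libraries. Its log2 ratio was -0.36, and 0.06 with equal totals, so its direction depended on the scaling. Consecutive genes of this row, 1 scarce and 1 abundant in the control library, thus behaved differently.

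Serpina1a to Serpina1e encode mouse copies of alpha-1-antitrypsin, the plasma inhibitor of neutrophil elastase. Together they had 564 control reads against 1542 in the library labelled CKO, a ratio of 1.82 after scaling. All 5 log2 ratios were above 0, and 1 reached 2-fold. The one that did, Serpina1a, stood at a log2 ratio of 1.09 from 105 and 336 reads. Just outside the threshold, Serpina1d stood at a log2 ratio of 0.9957 from 55 and 166 reads. The other 3 lay between 0.61 for Serpina1e and 0.90 for Serpina1c. This count depended on the scaling. With equal totals Serpina1b, Serpina1c, Serpina1d and Serpina1e reached 2-fold as well, with Serpina1e at 1.02. With the values as deposited Serpina1b, Serpina1c and Serpina1d did. These copies cannot be ranked among themselves. Between 14.8% (Serpina1e) and 58.5% (Serpina1c) of the 100-base windows of their longest transcripts occurred letter for letter in another gene, so reads could be split between copies.

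The Serpina3 genes descend from an ancestor shared with the human gene for alpha-1-antichymotrypsin, and their reactive loops differ, so the copies target different proteases. Of the 7 in the table, 5 were at least 2-fold higher (71.4%), against 13.4% of all genes kept. Of these 5, Serpina3f and Serpina3n passed the minimum through the library labelled CKO alone and had to be higher there. Serpina3n (gene ID 20716, chr12:104406646-104414334), whose product inhibits granzyme B and leukocyte elastase, had 5 control reads against 691 in the library labelled CKO. It was 92.1-fold higher with an interval of 39.3 to 285, a width set by the few control reads. With the full column minimum subtracted, 1 read less in each library, its log2 ratio was 6.51 instead of 6.27. It was 4.97 with a pseudocount of 10 and 4.21 for values as deposited. Serpina3g, an intracellular inhibitor of cathepsins also called Spi2A, had 19 and 380 reads and was 13.3-fold higher (8.42 to 22.4). Serpina3f had 3 control reads and 66 reads in the library labelled CKO, a ratio of 14.7 with a counting interval of 4.80 to 72.9. The log2 ratio of Serpina3f was 3.49, but 2.05 with a pseudocount of 10 and 1.62 for values as deposited. These 3 genes were thus close to the lowest values of the control library and clearly above them in the library labelled CKO.

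The other Serpina3 copies moved less. Serpina3h, annotated by RefSeq as a transcribed pseudogene, had 65 and 384 reads and was 3.94-fold higher (3.02 to 5.21). Serpina3i had 18 and 87 reads and was 3.22-fold higher (1.92 to 5.69). Serpina3b, the lowest of the clade, had 82 and 80 reads and a fold of 0.650 (0.472 to 0.896), and its log2 ratio of -0.61 was within 2-fold. Serpina3a stood at a log2 ratio of -0.14 from 17 and 23 reads, and 0.26 with equal totals. Sharing of 100-base windows was low here, at most 4.64% (Serpina3g), so most 100-base reads could be placed on 1 copy. Serpina7, which encodes a carrier of thyroxine in plasma and lies on the X chromosome, had 9 and 77 reads and was 5.70-fold higher (2.85 to 12.9).

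**Figure D3:**
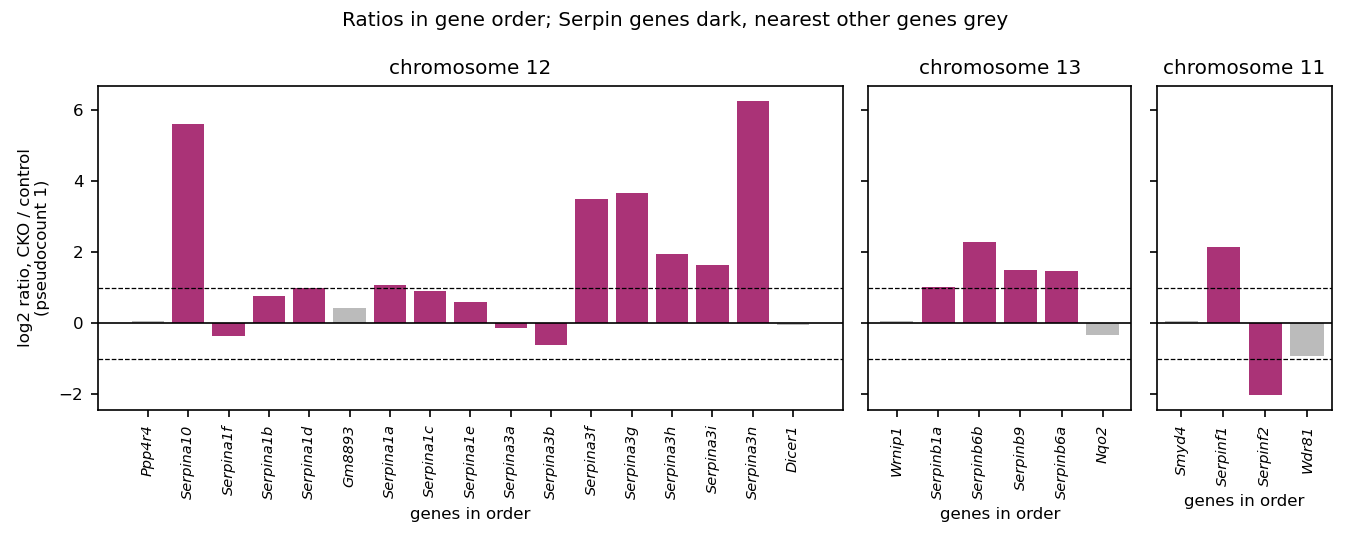
Log2 ratios of the library labelled CKO over the control library (pseudocount 1) for Serpin genes (dark) and the nearest other genes of the table (grey), in gene order along chromosomes 12, 13 and 11. Dashed lines mark 2-fold. On chromosome 12 the tall bars stand at Serpina10 and from Serpina3f to Serpina3n, and on chromosome 11 the neighbours Serpinf1 and Serpinf2 point in opposite directions.

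Because Serpina3 neighbours moved differently, the start regions of 1 copy within 2-fold and 3 higher copies are shown here. Each runs from 250 bases before to 50 bases after a RefSeq start on GRCm38.p6, and 24 of the 29 genes had at least 1 such window. Motifs searched on both strands, with N for any base, were TTCNNNGAA (bound by STAT factors), TGANTCA (AP-1), GGGNNTTTCC (a form of the NF-kB motif), GAAANNGAAA (the interferon-stimulated response element) and TATAAA (the TATA box). Capitals mark every match. The windows are chr12:104127746-104128045 for Serpina3b, chr12:104235897-104236196 for Serpina3g, chr12:104262872-104263171 for Serpina3i and chr12:104406458-104406757 for Serpina3n, and all 4 are on the plus strand.
Serpina3b: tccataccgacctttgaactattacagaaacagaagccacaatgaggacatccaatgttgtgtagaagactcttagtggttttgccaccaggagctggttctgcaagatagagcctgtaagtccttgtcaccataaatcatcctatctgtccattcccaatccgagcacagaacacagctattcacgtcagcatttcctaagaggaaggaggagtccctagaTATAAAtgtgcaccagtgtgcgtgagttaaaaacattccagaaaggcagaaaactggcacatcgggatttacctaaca
Serpina3g: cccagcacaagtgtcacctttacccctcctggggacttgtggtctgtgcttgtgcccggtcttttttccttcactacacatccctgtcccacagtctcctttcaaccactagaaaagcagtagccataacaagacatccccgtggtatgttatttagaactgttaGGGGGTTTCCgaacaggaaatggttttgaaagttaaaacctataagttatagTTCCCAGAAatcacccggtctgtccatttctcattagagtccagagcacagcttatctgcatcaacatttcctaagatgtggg
Serpina3i: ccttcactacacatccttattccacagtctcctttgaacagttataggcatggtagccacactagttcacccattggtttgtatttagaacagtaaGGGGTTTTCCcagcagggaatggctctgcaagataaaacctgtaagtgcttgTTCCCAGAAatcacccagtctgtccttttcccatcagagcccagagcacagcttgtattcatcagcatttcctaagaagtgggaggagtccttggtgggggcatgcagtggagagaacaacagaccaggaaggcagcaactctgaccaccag
Serpina3n: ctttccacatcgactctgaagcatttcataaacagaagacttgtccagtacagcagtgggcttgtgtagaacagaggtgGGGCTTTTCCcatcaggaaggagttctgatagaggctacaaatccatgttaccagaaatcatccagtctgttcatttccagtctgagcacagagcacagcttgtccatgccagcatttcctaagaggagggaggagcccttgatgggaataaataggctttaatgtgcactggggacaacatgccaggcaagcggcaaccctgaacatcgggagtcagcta

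GGGNNTTTCC occurred in 1.63% of all 32851 windows of this kind and in 3 of the 24 Serpin genes with a window, and these were Serpina3g, Serpina3i and Serpina3n. TTCNNNGAA occurred in 8.30% of all windows and in 5 of the 24 genes, namely Serpina1f, Serpina3f, Serpina3g, Serpina3i and Serpinb6a. In Serpina3g and in Serpina3i the first letters of both motifs were 52 bases apart. TATAAA occurred in 13.6% of all windows and in 4 of the 24 genes, namely Serpina3a, Serpina3b, Serpina3f and Serpina7. The last 2 were higher, but both passed the minimum through the library labelled CKO alone and had to be higher there. The Serpina3b window held neither of the first 2 motifs. Serpina3f lacked GGGNNTTTCC and Serpina3n lacked TTCNNNGAA, so neither motif was in every higher Serpina3 copy with a window. Both of these genes passed the minimum through the library labelled CKO alone and had to be higher there. Whether a motif divides the higher copies from the others can therefore not be decided here. The windows of Serpina3g and Serpina3i were 79.6% identical over 235 aligned columns, and those of Serpina3b and Serpina3n 69.9% over 306, so the windows share much of their sequence and their motifs are not independent occurrences. TGANTCA occurred in 7.81% of all windows and in 5 of the 24 genes, namely Serpina1a to Serpina1d and Serpinb8. The windows of Serpina1a to Serpina1d were 91.4% to 94.9% identical in pairs, so their matches are not independent occurrences either. The Serpina1e window starts after the stretch that holds the match in these copies. A match describes letters only, and binding was not measured.

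Of the 5 Serpinb genes, 4 lie on chromosome 13 within 1160703 bases, and these were the 4 that were at least 2-fold higher. Serpinb9 (gene ID 20723, chr13:32997061-33017955) encodes an inhibitor of granzyme B that shields cells from killer lymphocytes, and it had the most reads of the clade. It had 981 control reads against 4179 in the library labelled CKO, and was 2.84-fold higher (2.65 to 3.05). Serpinb6b, whose product inhibits granzyme A, had 325 and 2392 reads and was 4.91-fold higher (4.37 to 5.53), the largest fold of the clade. Serpinb6a, whose product inhibits cathepsin G, had 621 and 2576 reads and was 2.77-fold higher (2.53 to 3.02). These 3 intervals lay wholly above 2-fold.

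Serpinb1a, whose product inhibits elastase, cathepsin G and proteinase 3 of neutrophils, was the member just inside the threshold. It had 300 and 916 reads and was 2.04-fold higher, with an interval of 1.78 to 2.33 that includes 2. Serpinb8, which lies apart on chromosome 1 and encodes an inhibitor of furin, had 321 and 625 reads and a fold of 1.30 (1.13 to 1.49). The clade therefore ranged from 1.30-fold to 4.91-fold. No 100-base window of these 5 transcripts was shared with another gene. The gene Nqo2 lies within the Serpinb6a interval of the annotation and had a log2 ratio of -0.32.

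The start region of Serpinb9 and 1 of 2 start regions of Serpinb6a held GAAANNGAAA, read on the minus strand of the window, a motif found in 3.44% of all windows and in 1 further Serpin gene, Serpina3a. They are shown because both genes belong to the chromosome 13 group and carry the motif at different distances from the start, with its leftmost letter at position -46 in Serpinb9 and -84 in Serpinb6a. In Serpinb6a the motif shares 3 bases with a TTCNNNGAA, and a second TTCNNNGAA follows the start. The other Serpinb6a window and that of Serpinb6b, the member of this group with the largest fold, held none of the 5 motifs. The windows are chr13:33004291-33004590 on the plus strand for Serpinb9 and chr13:34002745-34003044 on the minus strand for Serpinb6a.
Serpinb9: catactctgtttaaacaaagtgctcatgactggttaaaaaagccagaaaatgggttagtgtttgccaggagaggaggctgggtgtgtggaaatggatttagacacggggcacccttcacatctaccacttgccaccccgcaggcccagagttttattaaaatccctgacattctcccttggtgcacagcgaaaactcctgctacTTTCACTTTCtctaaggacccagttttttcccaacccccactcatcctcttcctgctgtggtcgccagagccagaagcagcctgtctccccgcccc
Serpinb6a: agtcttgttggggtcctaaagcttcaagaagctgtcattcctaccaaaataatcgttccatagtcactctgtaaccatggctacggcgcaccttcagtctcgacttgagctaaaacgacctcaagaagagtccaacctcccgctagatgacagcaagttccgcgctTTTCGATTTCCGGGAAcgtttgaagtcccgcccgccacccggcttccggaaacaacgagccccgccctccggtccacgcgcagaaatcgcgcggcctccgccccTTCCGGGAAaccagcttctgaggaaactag

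Serpine2 (gene ID 20720, chr1:79794317-79858665), which encodes nexin 1, an inhibitor of thrombin and of plasminogen activators, was higher. It had 241 control reads against 1878 in the library labelled CKO, and was 5.20-fold higher (4.54 to 5.97). Per kilobase of exon this was 29.1 control reads and 151 scaled CKO reads, a low level beside that of Serping1 or Serpinh1.

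The enzymes of plasminogen activation moved less than this inhibitor. Of 9 genes for plasminogen activation, 2 were at least 2-fold higher (22.2%), against 13.4% of all genes kept. None was lower, against 5.35%, and the median log2 ratio of the 9 was 0.78. Plau, which encodes urokinase and was the most abundant of the list, had 12555 and 32414 reads and was 1.72-fold higher (1.69 to 1.76). Plat, the tissue-type activator, had 920 and 2494 reads and a fold of 1.81 (1.67 to 1.95). Both folds were below 2. The largest log2 ratio was 2.01 for Plaur, the urokinase receptor, and the smallest was -0.44 for Plg, plasminogen, with 13 and 14 reads, which passed in the control library alone.

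Serpinf2 (gene ID 18816, chr11:75431736-75439501), which encodes alpha-2-antiplasmin, the plasma inhibitor of plasmin, was lower. It had 14414 control reads against 5332 in the library labelled CKO, and was 4.05-fold lower with an interval of 3.93 to 4.19. Its log2 ratio of -2.02 ranked 159 from the bottom of all genes kept. Serpinf1, which lies 9112 bases away and encodes the pigment epithelium-derived factor, had 18 and 125 reads and was 4.63-fold higher (2.81 to 8.07). These neighbours thus differed in level and in direction. The genes on either side of the pair had log2 ratios of 0.06 (Smyd4) and -0.92 (Wdr81).

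Serpinc1, which encodes antithrombin, was the other lower member. It had 196 and 80 reads and was 3.68-fold lower (2.82 to 4.83). With the values as deposited, Serpinc1 was within 2-fold, at a log2 ratio of -0.82. Serpind1, the heparin cofactor II gene, did not reach 10 scaled reads. Among 16 genes of coagulation proteases and cofactors, 5 were at least 2-fold higher and 1 lower, with a median log2 ratio of 0.53. The lower one was Proc, the gene of protein C, at a log2 ratio of -1.61 from 7306 and 3581 reads. The highest was Fgg, a fibrinogen chain, at 2.85 from 51 and 560 reads.

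F10, the gene of the enzyme that the Serpina10 product inhibits, had 5 and 34 reads and a fold of 4.53 (1.76 to 14.8). Unlike Serpina10, F10 passed the minimum only through the library labelled CKO and had to be higher there. Klkb1, plasma prekallikrein, had 105 and 142 reads and a fold of 0.902 (0.696 to 1.17). Kng2, a kininogen, was the most abundant of the coagulation list, with 8012 and 14126 reads, and stood at a log2 ratio of 0.23. F2, the prothrombin gene, and 6 other genes of the list were not analysed here. The coagulation genes thus moved in both directions, with 10 log2 ratios above 0 and 6 below. At least 2-fold higher were 31.25%, against 13.4% of all genes kept, and 6.25% were lower, against 5.35%. Their median of 0.53 stood above the 0.02 of all genes kept. At equal totals it was 0.95, against 0.44 for all genes kept, and for deposited values 1.05, against 0.57.

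Serping1 (gene ID 12258, chr2:84765360-84775444) had 1509 control reads against 6767 in the library labelled CKO, and was 2.99-fold higher (2.83 to 3.16). Its protein blocks the proteases that start the classical and lectin pathways of complement. Of the 6 genes for these proteases, 5 were at least 2-fold higher (83.3%), against 13.4% of all genes kept. In the other direction 1 was lower (16.7%), against 5.35%, and the median log2 ratio of the 6 was 1.56. C1s1, the most abundant, had 577 and 2517 reads and was 2.91-fold higher (2.66 to 3.19). Masp1 was highest at a log2 ratio of 2.09, and Masp2 was lowest at -1.58, with 102 and 50 reads. The inhibitor and most of its target enzymes were thus higher by similar folds. Ube2l6 beside Serping1 was also past 2-fold higher, at a log2 ratio of 1.27 from 203 and 738 reads. Gm19426 on the other side stood at 1.58 from 6 and 30 reads, and passed the minimum through the library labelled CKO alone.

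Serpinh1, a collagen chaperone of the endoplasmic reticulum that inhibits no protease, stayed within 2-fold. It had 3507 and 6398 reads and a fold of 1.22 (1.17 to 1.27), while Map6 beside it, with 6 and 87 reads, passed the minimum through the library labelled CKO alone and stood at a log2 ratio of 3.08. It was singled out after its values were seen, beside the collagens that it helps to fold. All 12 collagen genes had log2 ratios above 0, with a median of 1.31. Of the 12, 9 were at least 2-fold higher (75%), against 13.4% of all genes kept. The most abundant, Col4a1, had 8588 and 21250 reads and the smallest log2 ratio, 0.72, and Col1a1 had 288 and 2711 reads and the largest, 2.65. Serpini1, the neuroserpin gene and the remaining member within 2-fold, had 128 and 279 reads and a fold of 1.45 (1.17 to 1.81).

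**Figure D4:**
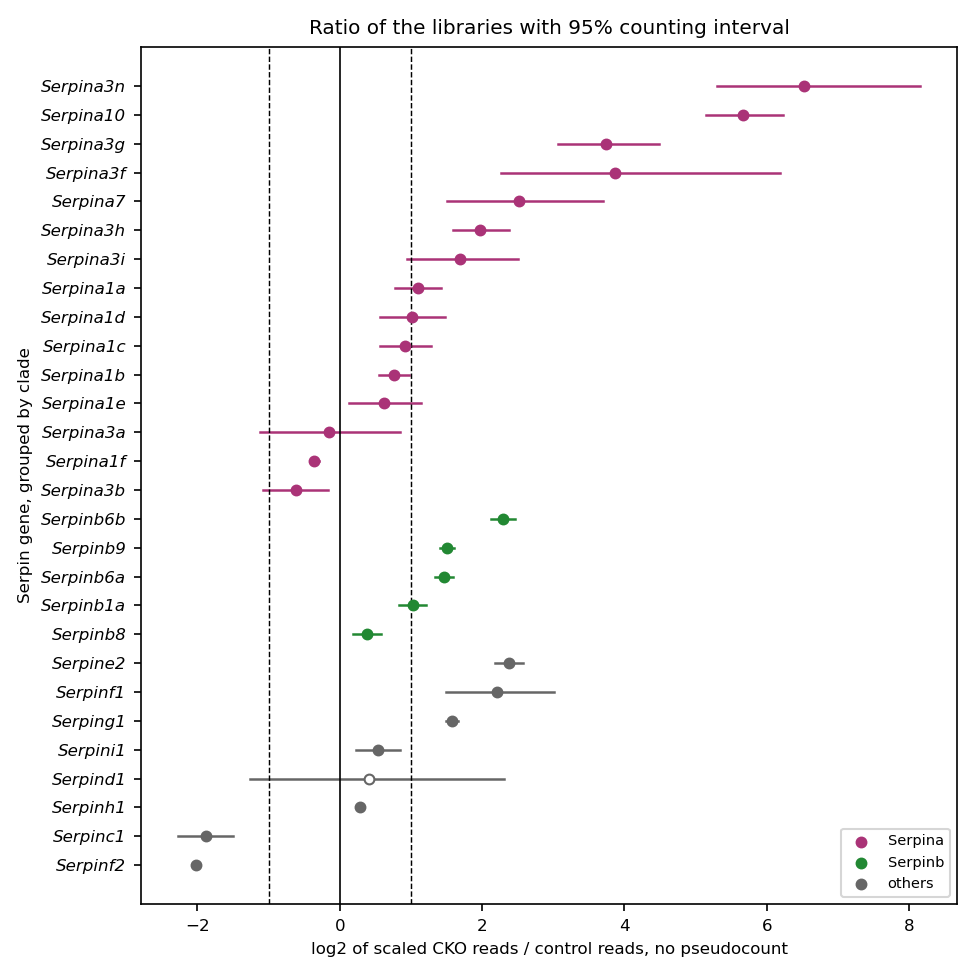
Log2 ratio of scaled CKO reads to control reads, without a pseudocount, for 28 of the 29 Serpin genes, with the 95% Clopper-Pearson counting interval as a line. Colours give the clade, the open circle is Serpind1, which had fewer than 10 scaled reads in both libraries, and dashed lines mark 2-fold. The intervals are widest for Serpina3f and Serpind1, which had 3 and 5 control reads, and both lower genes lie below the left dashed line.

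Agt, the gene of angiotensinogen, is a serpin by descent that does not carry the symbol, and it was kept apart from the counts. It had 22 control reads against 524 in the library labelled CKO, and was 15.9-fold higher (10.4 to 25.6). Its fold was thus of the size of that of Serpina3g.

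Of 14 genes for leukocyte serine proteases, a class that clade B and Serpina3 products target, 2 were in the table, both with few reads. Gzma, which passed in the control library alone, stood at a log2 ratio of -0.88 from 18 and 14 reads, and Gzmm stood at a log2 ratio of 0.31 from 10 and 19 reads. The other 12, Elane among them, were not analysed here. Of the 11 cathepsins, many of them targets of intracellular serpins, 4 were at least 2-fold higher (36.4%), against 13.4% of all genes kept. The median log2 ratio of the 11 was 0.43. Ctss was highest at 3.50, with 264 and 4495 reads, and Ctsh was lowest at -0.53. Ctsd, the most abundant, stood at a log2 ratio of 0.40 from 23911 and 47190 reads. Among 10 tissue kallikreins and membrane serine proteases, 1 was at least 2-fold higher (10%), near the 13.4% of all genes kept. It was Tmprss4 at 1.31. The median of the 10 was -0.07, with Hpn lowest at -0.82 and Klk1, the most abundant, at -0.70.

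Markers of several cell types moved with the Serpin genes, and in bulk RNA fewer cells of a type and less RNA per cell cannot be told apart. Of 9 macrophage markers in the table, 8 were at least 2-fold higher (88.9%), against 13.4% of all genes kept. The summed reads of the 9 were 3871 and 26079. Csf1r, the most abundant in the control library, had a log2 ratio of 0.51 and Lyz2, the most abundant in the library labelled CKO, one of 3.66. Of 8 fibroblast and pericyte markers, 7 were at least 2-fold higher (87.5%, against the same 13.4%), with summed reads of 5757 and 27951. Their log2 ratios ran from 0.48 for Pdgfrb, the most abundant in the control library, to 2.65 for Col1a1, while Col3a1, the most abundant in the library labelled CKO, stood at 2.56. The higher Serpin genes were thus accompanied by higher markers of both cell groups, and the part of these cells in the Serpin ratios was not tested.

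Smaller lists rested on few reads, and many of their genes passed the minimum in 1 library only, which fixed their direction. Over all genes kept, 13.4% were at least 2-fold higher and 5.35% lower. Among genes that passed in the control library, 10.4% were higher. Of 7 markers of urothelium and stratified epithelium, 6 were at least 2-fold higher, from 89 to 714 summed reads, led by Psca at a log2 ratio of 4.29 and with Upk1a lowest at 0.89. Of these 7, 5 passed through the library labelled CKO alone and had to be higher there, and of the 2 that passed in the control library 1 was higher, Upk3b, which had the most control reads, 30. Of 6 kept T and NK cell markers, 5 were higher, with 71 and 317 summed reads over 7 genes, from -0.46 for Ncr1 to 2.21 for Cd3g. Of these 6, 3 passed through the library labelled CKO alone, and of the other 3, 2 were higher. Cd4 had the most control reads, 17. Of 4 neutrophil markers, 2 were higher and 1 was lower, with 58 and 267 summed reads. Csf3r was highest and most abundant at 2.37 and Ltf, which passed in the control library alone, lowest at -1.58. Of the mast cell markers, Kit alone was in the table, at a log2 ratio of 0.58 from 325 and 732 reads.

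Endothelial markers hardly moved. None of 9 reached 2-fold, while over all genes kept 13.4% were higher and 5.35% lower. The median log2 ratio of the 9 was -0.07. Their summed reads were 17798 and 24575, or 16383.3 of the latter after scaling. They ranged from -0.67 for Kdr to 0.14 for Emcn, and Plvap, the most abundant, stood at -0.10. With equal totals the median was 0.35. The part of these cells in the Serpin ratios was not tested either.

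The lower Serpin genes stood beside lower markers of 2 other cell types. Of 10 proximal tubule markers, 4 were at least 2-fold lower (40%), against 5.35% of all genes kept, and none was higher. The summed reads of the 10 were 520032 and 417845, and their median log2 ratio was -0.76. Slc22a6, an organic anion transporter, was lowest at -1.62, and Slc5a12, a lactate transporter, highest at 0.41. Of 6 hepatocyte markers in the table, 4 were at least 2-fold lower (66.7%), against the same 5.35%. The summed reads of the 6 were 5543 and 1985, and their median log2 ratio was -1.22. Ttr was the most abundant with 2889 and 860 reads, Apob was lowest at -2.35 and Apoa1 highest at -0.42. Alb, the defining liver transcript, had 117 and 121 reads, or 80.7 of the latter after scaling, a log2 ratio of -0.53. Of the 6, 2 passed the minimum in the control library alone and had to be lower in the other. The other 4 hepatocyte markers were not analysed here. These levels depended on the scaling. With equal totals the medians were -0.35 for the proximal tubule and -0.82 for the hepatocyte markers, and for values as deposited -0.18 and -0.11. The part of either cell type in the Serpin ratios was not tested.

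**Figure D5:**
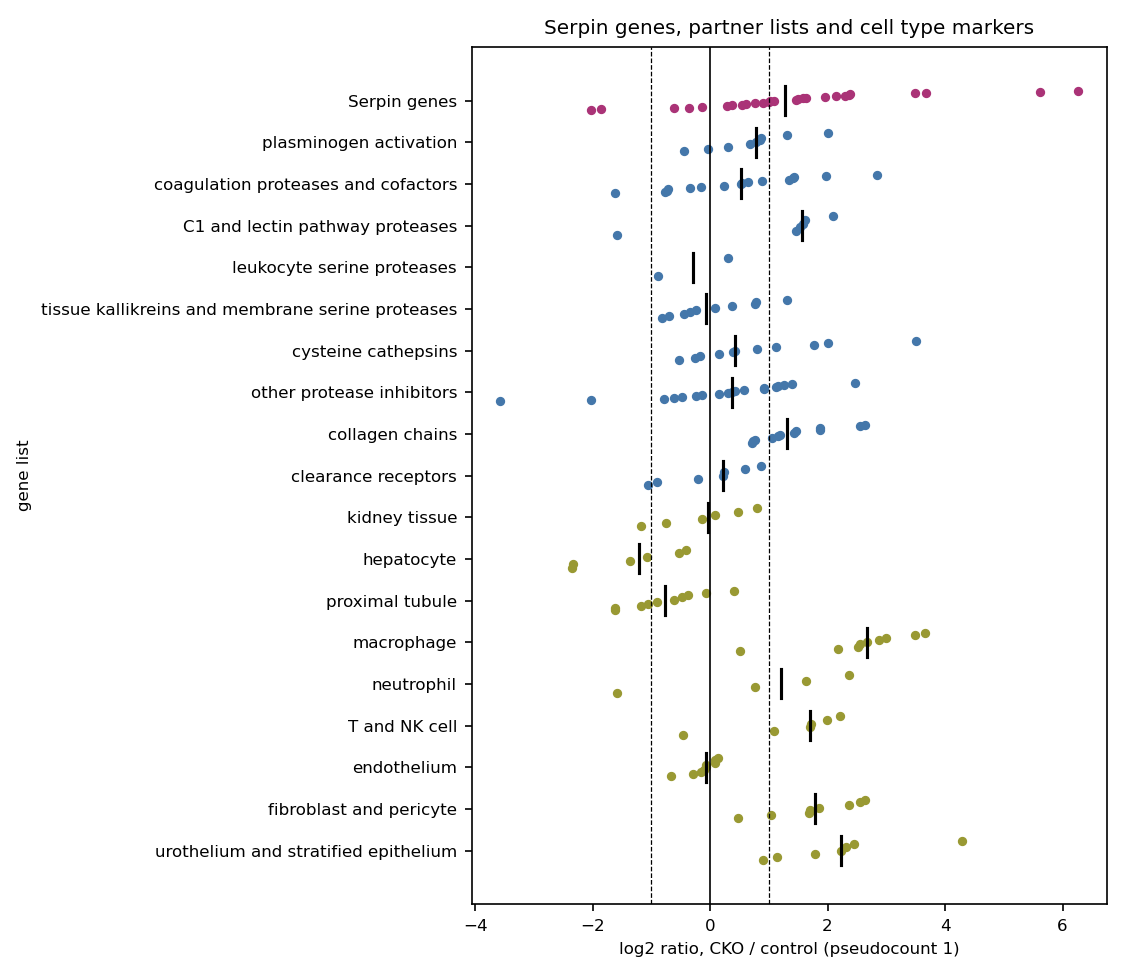
Log2 ratios (pseudocount 1) of 27 of the 28 kept Serpin genes (top), of the protease, inhibitor, collagen and receptor lists (blue) and of the cell type markers (olive), 1 point per gene, with black bars at the medians of all kept genes. The Serpin genes spread from -2.02 to 6.27 around a median of 1.28, and the macrophage markers have the highest median, 2.67.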

How the data were processed

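Total RNA of whole kidneys was made into stranded mRNA libraries, 1 per group. The submitters' processing notes name STAR 2.7.3a, HTSeq, DESeq2 and edgeR, Cufflinks 2.2.1 (its values were not used here) and mm10. The deposited table gives each gene a score without a standard unit, a whole number that the authors call a normalized count, and its columns are not scaled to each other. Reading a score as a read count above a constant floor is inferred from the values alone. The counting strand is not given in the sources used here, so the reads of Serpinb6a, which overlaps Nqo2, and Serpind1, which overlaps Pi4ka, are uncertain, as are those of near-identical copies.

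The floor, the scaling, the minimum of 10 scaled reads, the pseudocount of 1 and the 2-fold threshold are given with the results. Members, partner lists and marker lists were chosen with earlier results of these data known. Named were Serpin genes past 2-fold, the member of each clade with most reads, those next to the threshold, and the highest, lowest and most abundant gene of each list. Other members, flanking genes and motifs were chosen after the values were seen. The plan gave a bound for a gene with 3 or fewer reads in a library, and a ratio with its counting interval is given instead. Genes outside clades A and B were pooled, unlike in the plan, and 1 member that enters the family totals is not reported here. No test between groups was possible.

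Gene positions and start regions came from RefSeq (GRCm38.p6), which matched all 29 genes by gene ID, and RefSeq lists 40 further Serpin symbols that were not analysed here. Exon lengths and transcripts came from GENCODE M21. Start regions were compared by local alignment in Biopython 1.88. The steps were tested on simulated data. Python 3.11.15, numpy 2.4.6, pandas 2.3.3, scipy 1.17.1 and matplotlib 3.10.9 were used. Alternatives were pseudocounts of 0.1 and 10, no minimum or 50 scaled reads, equal totals, equal upper quartiles, the column minimum as floor, the values as deposited, and thresholds of 1.5-fold and 4-fold. A median ratio over genes with at least 50 reads in both libraries and the removal of near-identical copies were added after the data were seen.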

Additional observations from a re-analysis of the deposited data

How the results depend on the processing

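The count of higher Serpin genes was 16 and lay between 15 and 20 under all alternatives except the 4-fold threshold, which left 9. At 1.5-fold it was 20. The count of lower genes was 2, with 1 at 4-fold, 3 at 1.5-fold and 1 with the values as deposited, where Serpinc1 left the group. The median log2 ratio of 1.28 lay between 1.09 with no minimum and 1.47 with the values as deposited, except that equal totals gave 1.69 and the removal of near-identical copies 1.58. Equal totals moved the median of all genes by a similar amount, and the excess of the Serpin median over it was 1.25 in both. With the values as deposited the excess was 0.90, and relative to the median of all genes 12 members were higher there. With equal totals 89.9% of all calls past 2-fold were higher, against 71.4% in the main setting and 96.5% with the values as deposited. Removing the 5 Serpina1 copies left 15 higher and 2 lower genes of 23. Zc3h12b stood at -0.25, at 0.16 with equal totals and at 0.42 with the values as deposited, which are not scaled and keep the floors. Of 189 values of 27 single genes under the 7 alternatives that can change a ratio, 153 stayed within the counting interval. Equal totals took 15 of the 27 outside it, and the deposited values took 19. No gene past 2-fold changed sign. Serpina1f and Serpina3a turned above 0 with equal totals, and both and Serpina3b with the values as deposited. Serpina1d gained the call under 5 settings. Serpina1b and Serpina1c gained it both for deposited values and at equal totals. Serpina1e gained it at equal totals only, and Serpini1 for deposited values only, at a log2 ratio of 1.02. No paired analysis was possible because there was only 1 library in either group. Depth limits the folds of Serpina3f, Serpina3n and Serpina7, which had 3, 5 and 9 control reads.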

Other observations

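Among protease inhibitors outside the serpin family, 19 were in the table from a list of 29. Of these, 5 were at least 2-fold higher and 2 lower, against 13.4% and 5.35% of all genes kept. The median log2 ratio of the 19 was 0.37. The lowest was Pzp, a broad plasma inhibitor of the alpha-2-macroglobulin family, with 8170 control reads against 1032 in the library labelled CKO, and it was 11.9-fold lower. Itih2, a heavy chain of a plasma inhibitor, had 295 and 108 reads and was also lower, at a log2 ratio of -2.02. Wfdc17 was highest at 2.46, with 21 and 180 reads. Timp3, an inhibitor of metalloproteinases and the most abundant of the list, stood at a log2 ratio of -0.61 from 68104 and 66717 reads. Pzp and Serpinf2 were thus both abundant in the control library and lower in the library labelled CKO. Pzp and Itih2 were the 2 inhibitors of the list past 2-fold in that direction.

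Serpin-enzyme complexes are cleared from plasma and tissue by receptors of the LDL receptor family. Of 7 genes for these receptors and their chaperone, none was at least 2-fold higher and 1 was lower, with a median log2 ratio of 0.21. Lrp2, the megalin gene and the most abundant, stood at a log2 ratio of -0.91 from 103389 and 82681 reads. The lower gene was Lrpap1, a chaperone of these receptors, with 20666 and 14956 reads and a log2 ratio of -1.05. Lrp1, which takes up many serpin-enzyme complexes, was highest at 0.88, with 2058 and 5663 reads. Most genes of the whole table also stayed within 2-fold, 14201 of the 17469 kept.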
